A study of Mus musculus with 32 samples.

Results

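Myostatin and its relatives form a small signaling pathway that restrains the growth of skeletal muscle. The 9 genes described here, of 54838 genes in the expression table, were taken by name. They encode the ligands *Mstn* (myostatin), *Gdf11*, *Inhba* and *Inhbb* (the subunits of the activins), the secreted inhibitors *Fst* (follistatin) and *Fstl3*, and the receptors *Acvr2a*, *Acvr2b* and *Acvr1b*. All 9 were found in the table, and all 9 passed the filter on low counts in each comparison. RNA was sequenced from the tibialis anterior (TA) muscle of the lower leg in wild-type (WT) mice and in *Mtm1* knockout (KO) mice, a model of X-linked myotubular myopathy. There were 8 groups, WT and KO at P1, P14, P21 and P35 (days after birth), with 4 libraries each, 32 in all. Levels are given as CPM, a gene's counts scaled to the TMM-adjusted total of its library. The labels give the strain as C57BL6/J for every group, and no group received a treatment. Per the study's methods, KO mice carry a targeted deletion in an exon of *Mtm1*, with no tissue-specific driver named, in a line first made in 129S2PAS and rederived onto C57BL6J.

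In this pathway, a ligand of the TGF-β superfamily is cut from a precursor and binds a type II receptor (*Acvr2a* or *Acvr2b*), which recruits and phosphorylates a type I receptor such as *Acvr1b* (ALK4). The type I receptor phosphorylates *Smad2* and *Smad3*, which enter the nucleus with *Smad4* and change transcription. Follistatin and FSTL3 wrap around myostatin, GDF11 and the activins and keep them from their receptors. Loss of myostatin, or an excess of follistatin, is known to enlarge muscle. Myostatin is made mainly by muscle fibres, and mature GDF11 is close to it in sequence.

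*Mstn* and *Gdf11*, the closely related ligands, moved in opposite directions in the oldest KO mice, so the DNA just before each gene is shown. *Mstn* lies on the plus strand of chromosome 1 at chr1:53061640-53068079 and *Gdf11* on the minus strand of chromosome 10 at chr10:128882295-128891718 (GRCm38). The 250 bases before each start, from RefSeq promoters of GRCm38.p6, are chr1:53061390-53061639 (plus strand) and chr10:128891719-128891968 (minus strand). Capitals mark E-boxes, the letters CANNTG, a palindrome searched on both strands, which basic helix-loop-helix factors such as the myogenic factors can bind.
Mstn: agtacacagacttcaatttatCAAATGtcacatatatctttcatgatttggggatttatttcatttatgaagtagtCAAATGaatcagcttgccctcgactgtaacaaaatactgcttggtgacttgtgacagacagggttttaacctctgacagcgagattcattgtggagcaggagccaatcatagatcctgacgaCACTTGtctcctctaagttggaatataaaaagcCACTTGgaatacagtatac
Gdf11: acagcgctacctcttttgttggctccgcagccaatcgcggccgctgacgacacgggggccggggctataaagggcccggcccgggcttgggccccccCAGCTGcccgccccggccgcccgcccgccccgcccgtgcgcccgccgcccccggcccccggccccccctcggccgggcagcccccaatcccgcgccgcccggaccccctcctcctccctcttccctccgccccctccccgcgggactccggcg

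The *Mstn* sequence held 4 E-boxes and was 38.4% G or C. The *Gdf11* sequence held 1 E-box and was 81.2% G or C. At least 1 E-box was present in 66.2% of the 32851 promoters of this length in the table, and the median G or C content was 52.4%. The letters TATAAA, read on the gene's own strand only, occurred once in each sequence and in 7.59% of all promoters. In *Mstn* they began 29 bases before the start and in *Gdf11* 185 bases before it. These are letter matches and not sites of binding.

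The libraries held between 49321035 and 85631408 counts. *Mtm1* itself, which checks the labels, was lower in every KO library than in every WT library of the same age, at 2.32 to 4.51 CPM in KO and 5.26 to 24.9 CPM in WT. The fibre markers *Acta1*, *Ckm*, *Myh1*, *Myh4*, *Mylpf* and *Tnnt3* summed to at least 18004 CPM in each library. Markers of skin keratinocytes summed to between 1825 and 6665 CPM in the 8 libraries of P1 and to no more than 21.9 CPM in any later library. Mice were killed to take the muscle, so each age was other mice, and age cannot be told apart from any batch that followed it.

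KO and WT were compared first, within each age. At P35, *Fst* and *Gdf11* were higher in KO, *Mstn*, *Acvr1b* and *Acvr2b* were lower, and the other 4 genes did not pass the test. At P21 *Fst* alone passed, and at P1 and P14 none did. A gene was called where the adjusted *P*-value of edgeR's quasi-likelihood test was under 0.01 and the fold change was over 1.5 in either direction. Among all genes tested, the share called was 0.0442% at P1 and 0.0318% at P14. It was 4.67% at P21 and 16% at P35. At P21, 3.18% of all genes were called higher in KO and 1.5% lower, and at P35 these shares were 8.49% and 7.52%. The pathway's counts were thus 0, 0, 1 and 5 of 9. At an unadjusted *P* under 0.05, edgeR's test gave 1 gene at P1 (*Acvr1b*) and 2 at P14 (*Mstn* and *Inhbb*). Over all genes tested, 1978 of 18100 at P1 and 1072 of 15728 at P14 were under this *P*. With the adjusted *P* and fold thresholds of a call, DESeq2 gave 0 genes at either age.

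**Figure D1:**
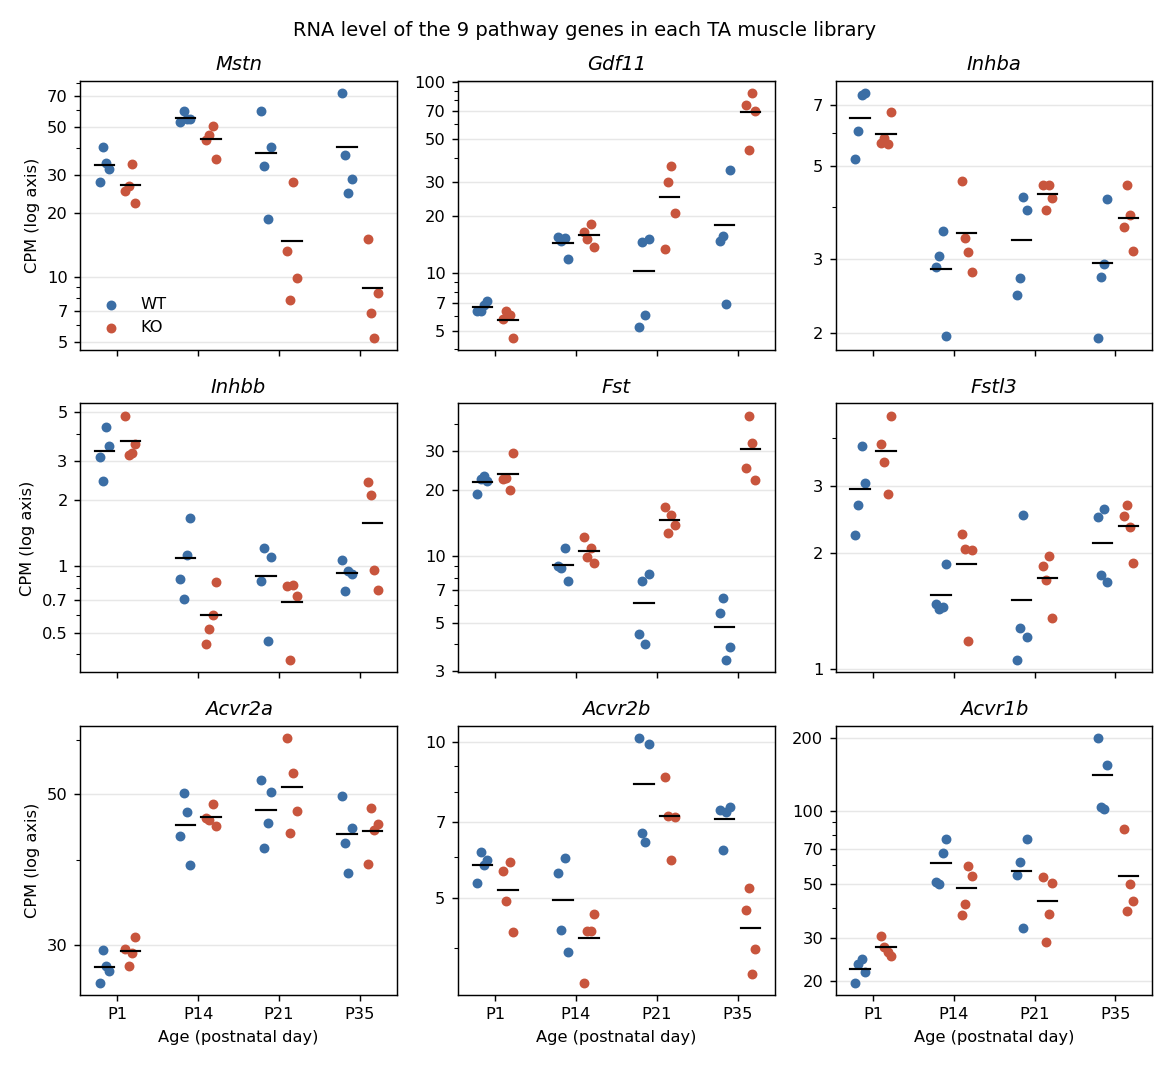
RNA level of each of the 9 genes in CPM (log axis) against age, 1 point per library and 4 per group, WT in blue and KO in red, with a black bar at the group mean. At P35 the KO points of *Mstn*, *Acvr2b* and *Acvr1b* lie below all WT points, and those of *Gdf11* and *Fst* lie above them.

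*Mstn*, the ligand that limits muscle mass, fell in KO muscle at P35. WT muscle held 72.0, 37.2, 24.7 and 28.8 CPM, and KO muscle 15.1, 6.80, 5.24 and 8.45 CPM, in 4 libraries each. The groups did not overlap, and the WT libraries themselves spread widely, with 1 library well above the other 3. The difference was -2.17 ± 0.41 (log2 fold change ± SE, n = 4 per genotype; edgeR adjusted *P* = 0.00264), a 4.49-fold lower level in KO. At P21 *Mstn* stood at 59.8, 32.9, 18.6 and 40.5 CPM in WT and at 13.3, 7.85, 27.8 and 9.96 CPM in KO. The groups overlapped there, through the lowest WT and the highest KO library. The difference at P21 was -1.35 ± 0.43 and did not pass (edgeR adjusted *P* = 0.0506). At P14, where the mean *Mstn* level with TMM scaling was highest in each genotype, all 4 KO libraries (35.5 to 50.9 CPM) lay under all 4 WT libraries (53.1 to 59.3 CPM). That difference was smaller, -0.33 ± 0.10, and did not pass (edgeR adjusted *P* = 0.558). This fit left out the pairing of KO and WT libraries by replicate number at P14. Across the settings that kept all libraries, the adjusted *P* of *Mstn* at P14 was as low as 0.0224 (edgeR or DESeq2), and none called it. The P1 difference was -0.30 ± 0.15 (edgeR adjusted *P* = 0.501).

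*Gdf11*, which shares the receptors of myostatin, went the other way. At P35 it was at 14.6, 15.6, 6.91 and 34.5 CPM in WT and at 75.4, 44.1, 87.1 and 70.3 CPM in KO. Every KO library was above the highest WT library. The difference was 1.98 ± 0.42 (edgeR adjusted *P* = 0.00474), a 3.93-fold higher level in KO. With 1 library left out, *Gdf11* and each of the 2 receptors called at P35 passed in 3 of 8 fits, with adjusted *P*-values up to 0.0166 for *Gdf11*, 0.0163 for *Acvr2b* and 0.0159 for *Acvr1b*, while *Mstn* passed in 8 of 8. The count of 5 fell to 2 without WT replicate 1, KO replicate 3 or KO replicate 4, and to 3 without WT replicate 4. No fit with 1 library left out kept all 5. At P21 *Gdf11* was at 5.23, 14.6, 6.04 and 15.0 CPM in WT and at 13.3, 30.0, 36.4 and 20.6 CPM in KO. Here the lowest KO library fell inside the WT range. The difference of 1.31 ± 0.41 did not pass (edgeR adjusted *P* = 0.0471). The KO differences at P1 and P14 were -0.22 ± 0.11 and 0.15 ± 0.11.

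The activin subunits were rarer, and neither was called at any age. *Inhba*, the βA subunit, ranged from 1.95 to 4.17 CPM in WT and from 3.14 to 4.5 CPM in KO at P35. Its difference there was 0.38 ± 0.22 (edgeR adjusted *P* = 0.198). *Inhbb*, the βB subunit, was at 1.07, 0.772, 0.950 and 0.922 CPM in WT and at 2.42, 2.11, 0.965 and 0.784 CPM in KO at P35. A pair of KO libraries was above the others, while the other two lay within or close to the WT range. The *Inhbb* difference was 0.78 ± 0.37 (edgeR adjusted *P* = 0.112) and rested on 33 to 145 counts per library. At P14 *Inhbb* leaned the other way, by -0.86 ± 0.30, without passing (edgeR adjusted *P* = 0.630). Across the settings that kept all libraries, its adjusted *P* at P14 was as low as 0.0215 (edgeR or DESeq2), and none called it.

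*Fst* had the largest fold difference of the 9 genes at P35. It was at 5.50, 6.44, 3.37 and 3.85 CPM in WT and at 25.1, 43.6, 32.8 and 22.2 CPM in KO. The groups were far apart, and *Fst* was 6.58-fold higher in KO (2.72 ± 0.27, edgeR adjusted *P* = 1.40e-04). At P21 *Fst* stood at 4.45, 7.70, 3.99 and 8.30 CPM in WT and had reached 16.7, 12.8, 15.4 and 13.9 CPM in KO. Again no KO library reached down to the WT range. The rise was 2.42-fold (1.28 ± 0.23, edgeR adjusted *P* = 0.00494). This P21 call was near the threshold: with 1 library left out, the adjusted *P* ranged from 0.00401 to 0.0159 and it passed in 3 of 8 fits. At P1 and P14 the *Fst* differences were 0.14 ± 0.12 and 0.22 ± 0.12. *Fstl3*, the other inhibitor, was not called at any age. Its P35 levels were 1.68 to 2.61 CPM in WT and 1.89 to 2.67 CPM in KO, with a difference of 0.17 ± 0.20 (edgeR adjusted *P* = 0.527).

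Among the receptors, *Acvr1b* and *Acvr2b* fell at P35 and *Acvr2a* was not called. *Acvr1b*, the type I receptor, was at 200.4, 104, 102 and 155 CPM in WT and at 84.5, 38.9, 50.3 and 42.8 CPM in KO. All KO libraries were below all WT libraries, and the level was 2.55-fold lower (-1.35 ± 0.29, edgeR adjusted *P* = 0.00521). *Acvr2b*, a type II receptor for myostatin, was at 7.40, 6.18, 7.34 and 7.49 CPM in WT and at 4.74, 5.24, 3.57 and 3.99 CPM in KO. These groups also stood apart, by less, with a 1.59-fold lower level in KO (-0.67 ± 0.14, edgeR adjusted *P* = 0.00502). *Acvr2a*, the other type II receptor, lay between 38.2 and 49.7 CPM in WT and between 39.5 and 47.7 CPM in KO. Its difference of 0.04 ± 0.09 (edgeR adjusted *P* = 0.764) was the smallest of the 9. The receptor calls depended on scaling: with counts divided by library totals alone, *Acvr2b* was -0.26 (adjusted *P* = 0.159), *Acvr1b* was -0.95 (adjusted *P* = 0.0142), and neither passed. All genes at P35 then had a median difference of 0.44 in place of 0.04 (log2), and all genes split into 4350 called higher and 326 lower in place of 1324 and 1172. At P21 that scaling gave a median of 0.20 in place of 0.01 and 1052 higher and 105 lower calls in place of 482 and 227, and *Acvr2b* then stood at 0.00. Relative to the median of all genes, *Acvr2b* at P35 was -0.70 and *Acvr1b* -1.39 under either scaling. A change of scaling moves all genes about alike, so this agreement was built in and does not test the receptor calls.

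**Figure D2:**
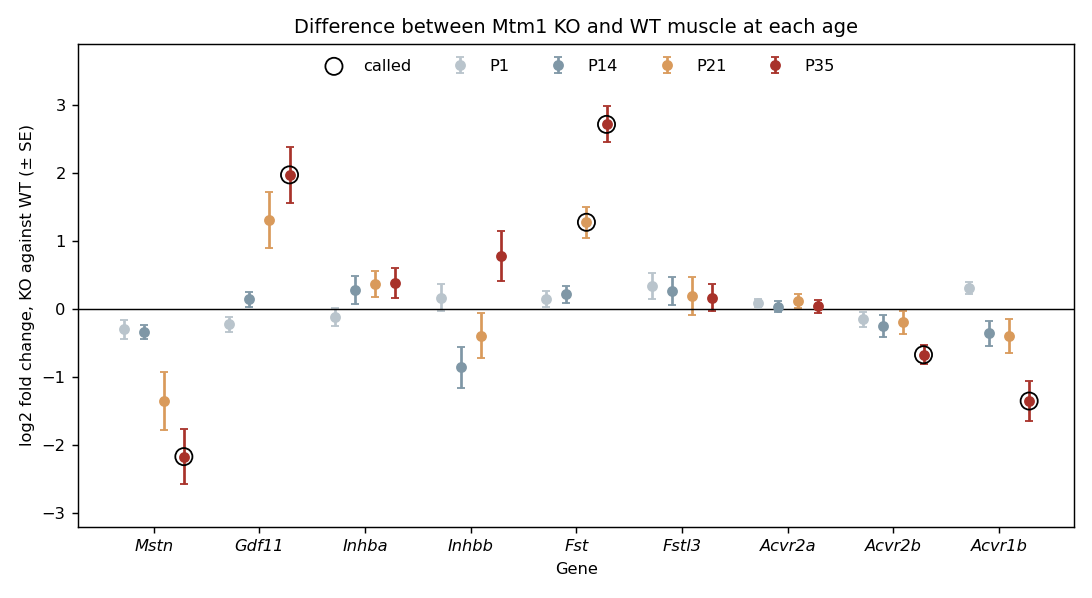
Log2 fold change of KO against WT for each of the 9 genes (points) with its standard error (bars), from 4 libraries per genotype at each of 4 ages, given by colour; a ring marks a called gene. At P35 the called values run from -2.17 for *Mstn* to 2.72 for *Fst*.

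The libraries of WT and KO did not overlap for 5 of the 9 genes at P35, the 5 that were called, against 39.6% of all genes tested. At P21 this held for 1 gene (*Fst*), against 24.7% of all genes. At P14 it held for *Mstn* alone, against 4.84%, and at P1 for *Acvr1b* alone, against 8.62%. At P1 *Acvr1b* was slightly higher in KO, at 25.3 to 30.6 CPM against 19.7 to 24.6 CPM (0.31 ± 0.09, edgeR adjusted *P* = 0.229), the reverse of its direction at P35.

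Levels of different genes were compared per kilobase of exon. In WT muscle at P35, mean levels were 31.8 ± 10.6 CPM per kb for *Acvr1b*, 15.0 ± 7.95 for *Mstn*, 7.68 ± 0.84 for *Acvr2a*, 4.41 ± 2.88 for *Gdf11* and 1.81 ± 0.16 for *Acvr2b* (SD, n = 4). Below them came *Fst* at 1.04 ± 0.31, *Fstl3* at 0.872 ± 0.197, *Inhba* at 0.460 ± 0.145 and *Inhbb* at 0.218 ± 0.029 CPM per kb. The libraries overlapped between *Acvr1b* and *Mstn*, between *Acvr2a* and *Gdf11*, between *Gdf11* and *Acvr2b*, and between *Fst* and *Fstl3*, so these neighbours were not separated. In KO muscle at P35 the order began with *Gdf11* at 17.0 ± 4.47 CPM per kb and *Acvr1b* at 12.3 ± 4.71, which overlapped. *Acvr2a* (7.76 ± 0.60), *Fst* (6.74 ± 2.09) and *Mstn* (3.29 ± 1.61) followed, each overlapping the next. *Mstn* thus passed from above *Gdf11* and *Fst* in WT to below *Gdf11* in KO.

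The ratio of 2 genes within a library does not depend on the library's scaling. In WT muscle *Fst* RNA was below *Mstn* RNA at each age, with a log2 ratio per length of -1.38 ± 0.16, -3.38 ± 0.22, -3.35 ± 0.78 and -3.77 ± 0.50 from the youngest to the oldest group (SD, n = 4). In KO muscle it was -0.95 ± 0.48, -2.81 ± 0.20, -0.60 ± 0.69 and 1.10 ± 0.96. The genotypes overlapped at P1 only. *Gdf11* relative to *Mstn* was -2.90 ± 0.26, -2.55 ± 0.19, -2.52 ± 1.07 and -1.87 ± 1.11 in WT and -2.83 ± 0.18, -2.06 ± 0.11, 0.26 ± 0.84 and 2.45 ± 0.75 in KO. Here too the libraries of the genotypes overlapped at P1 and not at P14, P21 or P35. At P35 *Gdf11* was above *Mstn* in 4 of 4 KO libraries and in 0 of 4 WT libraries. The ratio of *Acvr2a* to *Acvr2b* at P35 was 2.09 ± 0.18 in WT and 2.81 ± 0.27 in KO. These ratios restate the values above and carry no test.

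**Figure D3:**
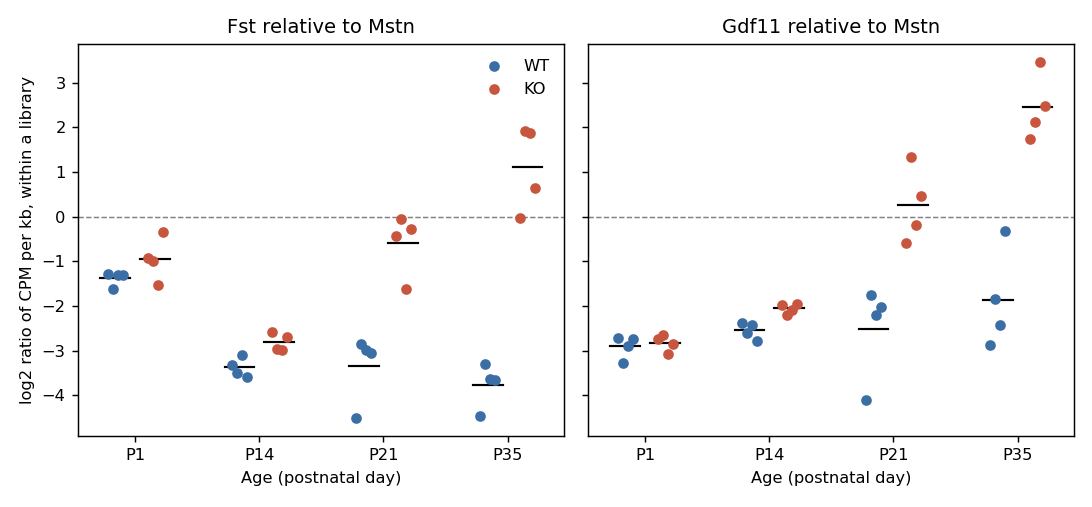
Log2 ratio of *Fst* to *Mstn* (left) and of *Gdf11* to *Mstn* (right), per length and within a library, against age; 1 point per library, WT in blue and KO in red, with a black bar at the mean of 4. At P35 the *Gdf11* ratio runs from -2.88 to -0.33 in WT and from 1.73 to 3.47 in KO.

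Markers of cell types moved with genotype at P35, and their part in the results was not tested. The summed level of the 6 fibre markers, the cells that make most *Mstn*, was 110052 to 155636 CPM in WT and 69839 to 96658 CPM in KO. The 4 satellite cell markers (muscle stem cells) summed to 23.8 to 39.0 CPM in WT and 12.1 to 26.9 CPM in KO. The 4 adipocyte markers were at 1.98 to 8.35 CPM in WT and 12.7 to 48.3 CPM in KO. Sums over 6 macrophage markers were 62.4 to 78.1 CPM in WT and 73.3 to 104 CPM in KO, and over 4 Schwann cell markers 46.7 to 394 CPM and 204 to 860 CPM. The 5 endothelial markers were at 328 to 611 CPM in WT and 286 to 357 CPM in KO, and the 6 fibroblast markers at 3800 to 5794 CPM and 4296 to 6860 CPM. No marker of these lists was at 0 in all libraries of a P35 group. Taken singly, 1 of 6 fibre, 2 of 4 satellite cell and 2 of 5 endothelial markers were called lower in KO. Called higher were 3 of 4 adipocyte and 3 of 6 macrophage markers, and 0 of the Schwann cell and fibroblast markers were called. Of all genes, 8.49% were called higher and 7.52% lower. In bulk muscle, fewer cells of a type and less RNA per cell cannot be told apart. The 9 keratinocyte markers summed to 5.79 to 8.28 CPM in WT and 15.2 to 21.9 CPM in KO. Only 3 of the 9 passed the filter on low counts, and of these *Sfn* alone was called, higher in KO.

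At P21 markers moved too, and their part was likewise not tested. The fibre markers summed to 139247 to 182695 CPM in WT and 121861 to 138607 CPM in KO, and the endothelial markers to 549 to 835 CPM and 433 to 519 CPM, both without overlap. Taken singly, 0 of the 6 fibre and 0 of the 5 endothelial markers were called, against 4.67% of all genes. The genotypes did not overlap for 24.7% of all genes. The satellite cell markers were at 18.9 to 30.1 CPM in WT and 9.11 to 21.0 CPM in KO, with 2 of 4 called lower (*Pax7* and *Calcr*). The macrophage markers were at 76.8 to 88.8 CPM and 86.8 to 107 CPM, with 2 of 6 called higher (*Cd68* and *C1qa*). Keratinocyte markers were at 4.25 to 5.31 CPM in WT and 9.42 to 11.7 CPM in KO, and 3 of the 9 were at 0 in all libraries of each group. Only 3 of the 9 passed the filter on low counts, and 1 of these was called higher in KO. The adipocyte, Schwann cell and fibroblast sums overlapped between the genotypes.

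Whether the KO effect changed between ages was tested as the difference of the effects, with all 32 libraries in 1 fit. None of the 9 genes was called at an adjusted *P* under 0.01, against 0.0161% of all genes between P1 and P14, 0.425% between P14 and P21 and 0.463% between P21 and P35. At an unadjusted *P* under 0.05, edgeR's test gave 1 gene (*Inhbb*), 3 genes (*Mstn*, *Gdf11* and *Fst*) and 4 genes (*Inhbb*, *Fst*, *Acvr2b* and *Acvr1b*). Of all 18583 genes tested, 1200, 2398 and 3241 were under this *P*, in the same order. At an adjusted *P* under 0.01, DESeq2 called 0, 0 and 1 of the 9 genes. *Fst* came nearest. Its KO effect was larger at P35 than at P21 by 1.43 ± 0.31 (edgeR adjusted *P* = 0.0124), and this is the gene that DESeq2 called. For *Mstn* the KO effect changed by -1.03 ± 0.49 between P14 and P21 (edgeR adjusted *P* = 0.367) and by -0.83 ± 0.50 between P21 and P35 (edgeR adjusted *P* = 0.407). An age at which the KO effect of *Mstn* or *Gdf11* set in was therefore not resolved.

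The genes were then followed along age within each genotype. From P1 to P14, 8 of the 9 were called in WT, against 55.1% of all genes, and 8 of 9 in KO, against 52.6%. *Acvr2b* was the exception in both. In WT the inhibitors and the activin subunits fell: *Fst* by 1.26 ± 0.11 on the log2 scale, *Fstl3* by 0.92 ± 0.18, *Inhba* by 1.21 ± 0.18 and *Inhbb* by 1.64 ± 0.27. Over the same step *Gdf11* rose by 1.09 ± 0.09 and *Acvr1b* by 1.45 ± 0.14. *Mstn* rose by 0.72 ± 0.10 and *Acvr2a* by 0.68 ± 0.08 in WT, but with library totals alone these became -0.05 and -0.08. In KO the values were 0.68 ± 0.15 for *Mstn* and 0.63 ± 0.07 for *Acvr2a*, and -0.02 and -0.09 with library totals. That scaling put the median of all genes at -0.85 in WT and -0.81 in KO, in place of -0.08 and -0.09, and it called 6 of the 9 genes in each genotype. *Acvr2b* was then called lower at P14 in both, while *Gdf11* in WT (0.32, adjusted *P* = 0.0464) and *Acvr1b* in KO (0.05, adjusted *P* = 0.688) were not called. Relative to those medians *Mstn* and *Acvr2a* were higher at P14 under either scaling. Here too the agreement was built in, as scaling moves all genes about alike. The P1 libraries also held the keratinocyte RNA given above, whose part in this step was not tested.

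After P14 few steps passed. In WT no gene was called from P14 to P21 (5.53% of all genes) or from P21 to P35 (2.45%). At an unadjusted *P* under 0.05, edgeR's test gave *Fst* and *Acvr2b* for the first of these steps and *Acvr1b* for the second. Over all genes tested, 6081 of 15337 were under this *P* in the first step and 5174 of 15039 in the second. Both were larger shares than among the 9 genes. With the adjusted *P* and fold thresholds of a call, DESeq2 gave 1 gene in each step. *Acvr1b* rose from 33.2 to 76.7 CPM at P21 to 102 to 200.4 CPM at P35 in WT, without overlap (1.30 ± 0.28, edgeR adjusted *P* = 0.0153). In KO the same step gave 28.9 to 53.4 CPM and 38.9 to 84.5 CPM (0.36 ± 0.27, edgeR adjusted *P* = 0.341). The difference of the *Acvr1b* effects between P35 and P21 was -0.97 ± 0.35 (edgeR adjusted *P* = 0.143).

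In KO, 1 gene was called from P14 to P21, against 7.04% of all genes. It was *Acvr2b*, which rose from 3.44 to 4.66 CPM to 5.91 to 8.56 CPM (0.77 ± 0.14, edgeR adjusted *P* = 0.00469). With 1 library left out it passed in 2 of 8 fits, with an adjusted *P* of up to 0.0176. In WT *Acvr2b* went from 3.93 to 5.98 CPM to 6.43 to 10.2 CPM over the same days (0.73 ± 0.19, edgeR adjusted *P* = 0.0232). *Mstn* in KO dropped from 35.5 to 50.9 CPM to 7.85 to 27.8 CPM, without overlap, and just missed the threshold (-1.59 ± 0.35, edgeR adjusted *P* = 0.0108).

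From P21 to P35 in KO, 2 genes were called, against 4.01% of all genes. *Fst* rose by 1.09 ± 0.20 (edgeR adjusted *P* = 0.00645) and *Gdf11* by 1.48 ± 0.30 (edgeR adjusted *P* = 0.00987). Both calls were lost in most fits with 1 library left out, which gave 0 to 3 calls. In WT the values over these days were -0.37 ± 0.29 for *Fst* and 0.79 ± 0.49 for *Gdf11*. Since *Fst* was at 19.2 to 23.3 CPM in WT at P1, the KO level at P35 (22.2 to 43.6 CPM) was in or above the newborn range, and the WT level was not. This comparison of P35 with P1 was not tested. The P1 libraries held the keratinocyte RNA given above, and levels set against P1 depended on scaling.

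Other genes of the pathway were taken from 4 lists. Of 9 Smad-induced genes described here, which TGF-β superfamily signals are known to raise and which are not a full list of such genes, 8 were called higher in KO at P35 and 1 lower, against 8.49% and 7.52% of all genes. The median log2 fold change of the list was 0.83, against 0.04 for all genes tested. The list was chosen with earlier results of these data known, so its counts and medians describe these genes and do not test the pathway. *Cdkn1a*, a cell cycle inhibitor also raised by p53, went from 10.3 to 29.1 CPM in WT to 166 to 361 CPM in KO (3.83 ± 0.36, edgeR adjusted *P* = 1.18e-04). *Tgif1*, a repressor that binds Smads, rose by 1.56 ± 0.19. *Ccn2*, *Id2*, *Pmepa1*, *Id1*, *Id3* and *Klf10* rose by 0.70 to 1.37. *Gadd45b*, a stress-induced gene, fell by 1.49 ± 0.20. Many of these genes answer to other signals as well, the *Id* genes to BMPs among them. *Smad7*, a known target of the pathway placed in the next list, is not among the 9 and was not called at P35 (-0.30). At P21, 2 of 9 were called, both higher, against 3.18% of all genes: *Cdkn1a* (3.38 ± 0.19) and *Tgif1* (0.95 ± 0.12). The median at P21 was 0.71 against 0.01. With library totals the P35 count stayed at 8 higher and 1 lower, with a median of 1.24 against 0.44 for all genes, and the P21 count was 4 higher. With RLE size factors *Id2* was not called at P35, leaving 7 higher and 1 lower.

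The Smads and their regulators had 2 of 12 called at P35, both lower, with a median of -0.43. As a share this was near the 16% of all genes called in either direction. *Smad3*, which carries the signal with *Smad2*, was at 104 to 125 CPM in WT and 41.3 to 64.1 CPM in KO (-1.11 ± 0.13, edgeR adjusted *P* = 2.93e-04). *Zfyve9* (SARA), which presents Smads to the receptor, fell by 0.70 ± 0.10. With library totals *Smad3* was still called lower, at -0.71, *Zfyve9* was not (-0.29), *Smad2* was called higher (0.76), and the list's median was -0.02 against 0.44 for all genes. *Smad2* was at 14.0 to 15.9 CPM in WT and 17.5 to 20.1 CPM in KO, with a difference of 0.36 ± 0.08 that was too small to be called (edgeR adjusted *P* = 0.00537). The inhibitory *Smad7*, a known target of the pathway, was not called (-0.30 ± 0.20, edgeR adjusted *P* = 0.247). *Smad6* (-0.39) and *Skil* (-0.35) were also lower in KO at P35 without being called. At P21 none of these 12 was called; *Smad3* was 0.13 ± 0.19.

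Of the 13 genes for ligand processing and binding, 9 were tested at P35, with 1 called higher and 2 lower and a median of 0.00, against 8.49% of all genes called higher and 7.52% lower. *Pcsk5*, a proprotein convertase, rose by 0.91 ± 0.17 (edgeR adjusted *P* = 0.00289). *Wfikkn2*, which binds myostatin and GDF11, went from 10.95 to 13.8 CPM in WT to 5.47 to 8.82 CPM in KO (-0.89 ± 0.15, edgeR adjusted *P* = 0.00178). *Inha*, the inhibin α subunit, fell by 1.32 ± 0.30. With library totals *Pcsk5* stayed called at 1.33, *Ltbp3* (0.59) and *Dcn* (0.67) were newly called higher, and *Wfikkn2* (-0.49) and *Inha* (-0.92) were no longer called. Among 10 other receptors and co-receptors, of which 9 were tested, none was called by edgeR's test at P35, and their median was 0.07. *Acvr1c* (ALK7), known from fat cells, was at 0.0231 to 0.511 CPM in WT and 0.392 to 2.14 CPM in KO (2.49 ± 0.82, edgeR adjusted *P* = 0.0349). *Bmpr2* (-0.56 ± 0.07, edgeR adjusted *P* = 4.53e-04) and *Bmpr1a* (-0.53 ± 0.10, edgeR adjusted *P* = 0.00299) had differences under the fold threshold. With library totals *Tgfbr2* was called higher (0.65, adjusted *P* = 0.00219), and the list's median was 0.47 against 0.44 for all genes. No gene of the 4 lists was called at P1 or P14.

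**Figure D4:**
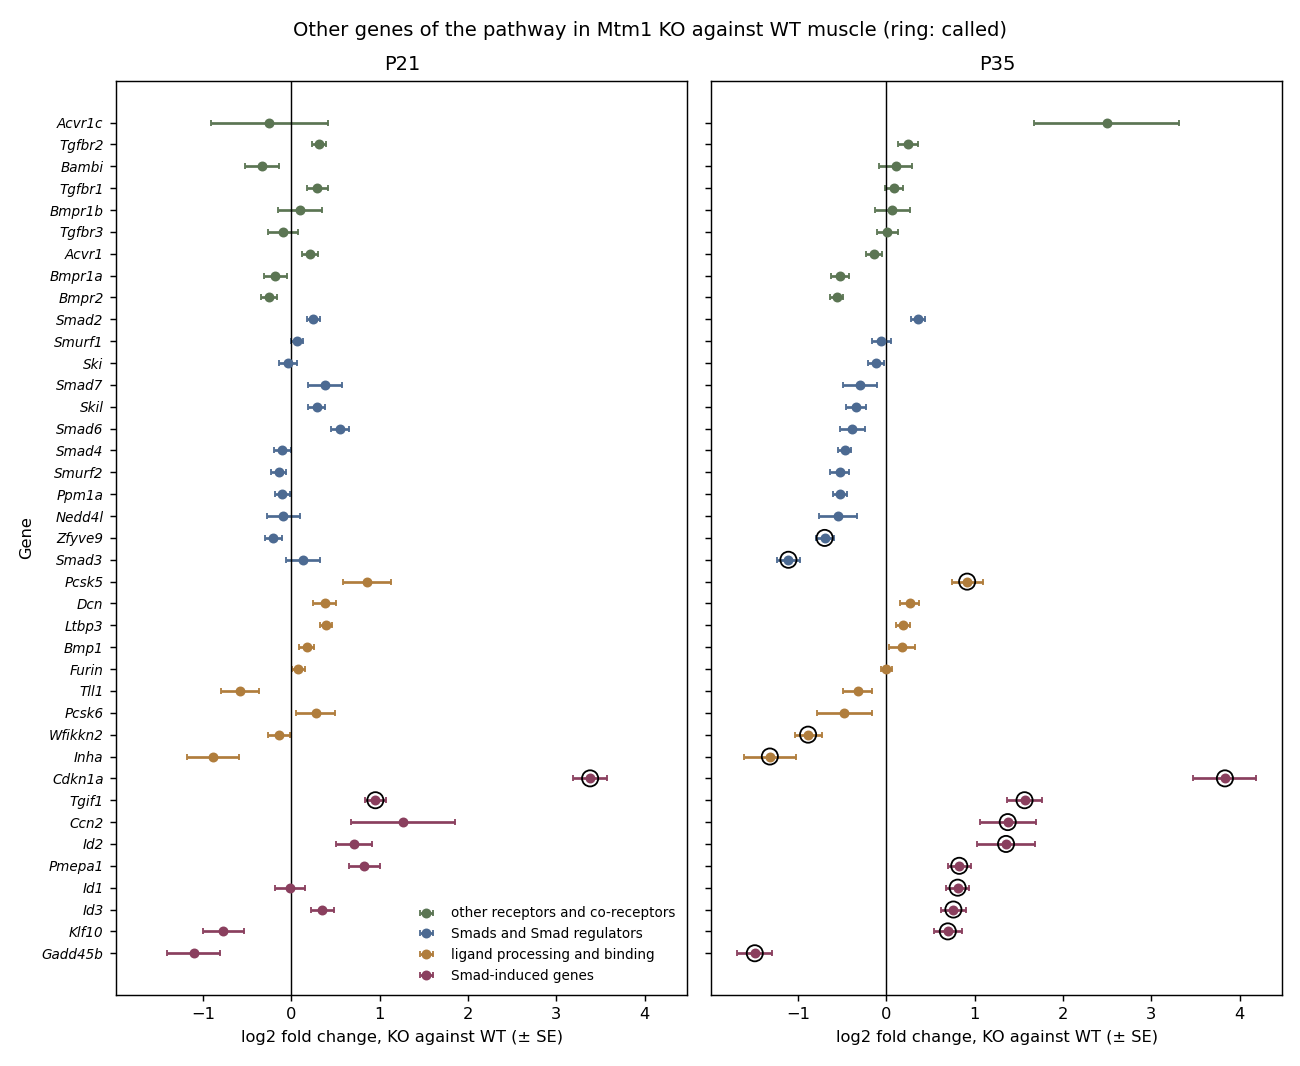
Log2 fold change of KO against WT (points) with its standard error (bars) for the tested genes of 4 pathway lists at P21 (left) and P35 (right), coloured by list, with 4 libraries per genotype; a ring marks a called gene. At P35 the Smad-induced genes run from -1.49 for *Gadd45b* to 3.83 for *Cdkn1a*, and all 9 are ringed.

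The genes whose level tracked *Mstn* most closely over the 32 libraries were *Neto2* (Pearson's r = 0.905 of log2 CPM), *Rps6kb1* (0.864) and *Calcr* (0.855), among 18582 genes. With the mean of each age taken out, they were *Mapk9* (0.919), *Lrig1* (0.907) and *Msrb3* (0.896). The closest gene was *Cmas* for *Gdf11* (0.929), *Copz2* for *Fst* (0.926), *Klk10* for *Fstl3* (0.881), *Stambpl1* for *Inhba* (0.920) and *Ptgfr* for *Inhbb* (0.930). For the receptors it was *Fbxw11* for *Acvr2a* (0.943), *Atp11a* for *Acvr2b* (0.890) and *Txndc16* for *Acvr1b* (0.936). These correlations describe libraries that share ages and genotypes and carry no *P*-value. *Klk10* was rare, with group means of 1.16 (WT) and 1.14 CPM (KO) at P1 and 0.187 to 0.311 CPM at later ages. Its match thus followed the difference between P1 and later ages, and the part of the keratinocyte RNA at P1 was not tested.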

How the data were processed

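Poly(A) RNA from muscle was made into directional libraries and sequenced in pairs. Per the labels, the authors aligned reads to GRCm38 with STAR 2.6.1 and deposited RSEM 1.2.22 expected counts per Ensembl gene, without normalization; DESeq2 is also named there, and the study's methods name HTSeq for counting. Of the values, 4.26% were not whole, and counts were rounded. Whether strand was used in counting is not given in the sources used here. *Inhba*, *Fst*, *Fstl3*, *Acvr2a* and *Acvr2b* overlap genes on the other strand and *Acvr1b* a miRNA on its own, so their counts may include reads of these.

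Tests were two-sided quasi-likelihood fits in edgeR 4.0.16 (R 4.3.3) with TMM scaling, filterByExpr and Benjamini-Hochberg adjustment over all genes tested. KO against WT and each age step used the 8 libraries of those groups, and differences of the KO effect used all 32. CPM values used TMM over 32 libraries and 18583 genes, and CPM per kb divided them by merged exon length (GENCODE M21). The log2 CPM for correlations had a prior count of 2. Scripts were tested on simulated data. Counts between 49321035 and 85631408 per library set the counting precision, and *Inhbb* rested on the fewest counts. No 2 libraries of a group agreed within sampling noise. The study's methods give muscle of n = 4 per genotype at P14, P21 and P35, and the labels number 4 libraries per group without saying that they are separate mice; *P*-values measure the spread between these libraries, which may be technical.

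The genes, lists and tests were chosen with earlier results of these data known. A further Smad-induced gene is not reported here. All 9 genes are described, with list genes called at P21 or P35, at least 3 of each list by smallest adjusted *P* at P35, and the genes most like each in level. Replicate numbers paired KO and WT libraries at P14, where deviations of same-numbered libraries correlated at 0.29 to 0.73 across genes. These correlations ran from -0.34 to 0.01 at P1, from -0.06 to 0.29 at P21 and from -0.10 to 0.23 at P35. For the steps across ages, their means ran from -0.12 to 0.13. Promoters were those of RefSeq (GRCm38.p6), with 8 of 9 genes matched; *Fst* had no entry. Alternatives covered DESeq2 1.42.0, other scalings, filters and thresholds, a replicate block, all libraries in 1 fit and each library left out.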

Additional observations from a re-analysis of the deposited data

Results flagged for a closer look

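Each of the 9 genes was checked in each of the 8 groups for 1 library far from the other 3 (Dixon's ratio at its 95% critical value), 72 groups in all. Chance gives such a gap in about 1 in 20 groups, and 3 were found. In WT at P14, *Fstl3* was at 1.88 CPM in 1 library and at 1.44 to 1.48 CPM in the other 3. In WT at P21, *Fstl3* was at 2.51 CPM in 1 library and at 1.06 to 1.28 CPM in the others. In WT at P35, *Acvr2b* was at 6.18 CPM in 1 library and at 7.34 to 7.49 CPM in the others, still above each KO library.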

How the results depend on the processing

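For KO against WT, 352 of 360 gene values kept direction and side of the threshold under other settings and 265 of 288 with 1 library left out. Most of these values were not called in the main fits. A call was lost in 4 of the 360 and gained in 3. With 1 library left out, a call was lost in 20 of the 288 and gained in 0. *Mstn* and *Fst* at P35 passed in each fit run, and *Gdf11* at P35 under each setting that kept all libraries. Of 9 genes, library totals called 3 at P35, and leaving out 1 library gave 2 to 4: 2 without WT replicate 1, KO replicate 3 or KO replicate 4 and 3 without WT replicate 4. At P21 the 1 call became 2 at an adjusted *P* under 0.05, 3 with all libraries in 1 fit (*Mstn* and *Gdf11* joined *Fst*), and 0 to 1 with 1 library left out (0 without WT replicate 1 or any KO replicate). The 0 calls in WT became 1 from P14 to P21 (adjusted *P* under 0.05, DESeq2, or 1 fit) and 1 from P21 to P35 (these or no filter). In KO, P14 to P21 gave 3 at an adjusted *P* under 0.05, 2 with DESeq2, no filter or 1 fit, and 0 to 2 with 1 library left out; P21 to P35 gave 1 with RLE size factors, 4 with 1 fit and 0 to 3 with 1 library left out. The difference between the KO effects at P35 and P21 called *Fst*, 1 gene, at an adjusted *P* under 0.05, with DESeq2 or with library totals, and 0 to 1 with 1 library left out. The cause was not tested.

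With the replicate block, KO against WT at P14, where numbers paired the libraries, changed no call among the 9 genes. Over all genes the block called 98 at P14 in place of 5. Across the settings that kept all libraries (edgeR or DESeq2), the lowest adjusted *P* at P14 was 0.00805 for *Acvr1b*, 0.0215 for *Inhbb* and 0.0224 for *Mstn*. *Acvr1b* stayed under the fold threshold in each of them. Elsewhere a pairing by number was not clear. There the block gave 0 calls at P21, 4 at P35 (*Acvr2b* edgeR adjusted *P* = 0.0159) and 0 from P21 to P35 in KO. From P14 to P21 in KO the block gave 1 call. *Mstn* was called lower in that step (-1.75, edgeR adjusted *P* = 0.00855) and *Acvr2b* was not called (edgeR adjusted *P* = 0.0222). The block called 3 Smad-induced genes at P21 in place of 2.

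Signs turned with library totals for *Acvr2b* in KO at P21 (0.0034), *Mstn* and *Acvr2a* from P1 to P14 (-0.0467 and -0.0786 in WT, -0.0166 and -0.0858 in KO), *Acvr2a* from P14 to P21 in WT (-0.1033) and *Inhbb* from P21 to P35 in WT (-0.0301). With 1 library left out, *Acvr2a* in KO ranged from -0.0225 to 0.0963 at P14 and from -0.0239 to 0.1037 at P35. In WT from P14 to P21, *Inhbb* ranged from -0.4395 to 0.0093, *Fstl3* from -0.3968 to 0.1074 and *Acvr1b* from -0.2995 to 0.0689; from P21 to P35, *Mstn* ranged from -0.3368 to 0.381 and *Inhbb* from -0.186 to 0.1925. None of these was called apart from the P1 to P14 steps. Depth limits *Inhbb* most.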
